A study of Mus musculus with 4 samples.

Results

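The genes described here are 10 regulators of the G1 phase of the cell cycle: the D-type cyclins Ccnd1 and Ccnd2, the cyclin-dependent kinases (CDKs) Cdk4 and Cdk6, and the CDK inhibitors Cdkn1a, Cdkn1b, Cdkn2a, Cdkn2b, Cdkn2c and Cdkn2d. They were chosen by name, and a gene was measured where a probe set of the array was annotated to that gene symbol alone. This held for 9 of the 10 genes, among 19938 genes with a value. The only probe set for Cdkn1a was annotated to 2 symbols, so no value is given for it. Expression was measured on 4 single-channel Affymetrix arrays in 2 groups of 2. The first group was CD4+ splenocytes of wild type C57BL/6 mice, and the second was CD4+ lymphoma cells from the spleen of C57BL/6 mice carrying a homozygous Tet2 gene trap. Tet2 is an enzyme that oxidises methylated cytosine. A gene trap is a cassette whose insertion interrupts a transcript. In both groups red cells were lysed and cells carrying CD4 were collected on magnetic columns. Purity and age are not given here. There was no group of non-malignant cells with the trap, so tumour and genotype cannot be told apart. Nothing in the labels says that the numbered samples of a group are separate animals, so p-values measure the spread between these samples, which may be technical.

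In G1, a D-type cyclin binds Cdk4 or Cdk6, and the active kinase phosphorylates the retinoblastoma protein, which then releases E2F transcription factors and lets genes of DNA replication be transcribed. The INK4 inhibitors, encoded by Cdkn2a, Cdkn2b, Cdkn2c and Cdkn2d, bind Cdk4 and Cdk6 and keep cyclin D off them. The proteins of Cdkn1a and Cdkn1b bind cyclin-CDK complexes, including those of Cdk2. Cyclins D2 and D3 and Cdk6 are the forms best known from lymphocytes, while cyclin D1 is best known from other cell types.

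Of the 9 measured genes, Ccnd1 fell, Cdk6 rose and 7 did not pass the test. Values are deposited intensities on a linear scale, and differences are lymphoma minus wild type in log2 units, tested with limma and adjusted with the Benjamini-Hochberg method over 19938 genes. An adjusted p under 0.05 counted as passing, as it did for 4.27% of all genes, 1.82% higher and 2.46% lower. The ranges of the 2 groups did not overlap for 8 of the 9 genes, 4 higher and 4 lower in lymphoma, against 44.1% of all genes. The median size of the difference, without its sign, was 0.27 for the 9 genes and 0.19 for all genes. Both called genes lost their call without either of the wild type arrays, as did every called gene. In those fits the spread is estimated from the lymphoma pair alone.

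**Figure D1:**
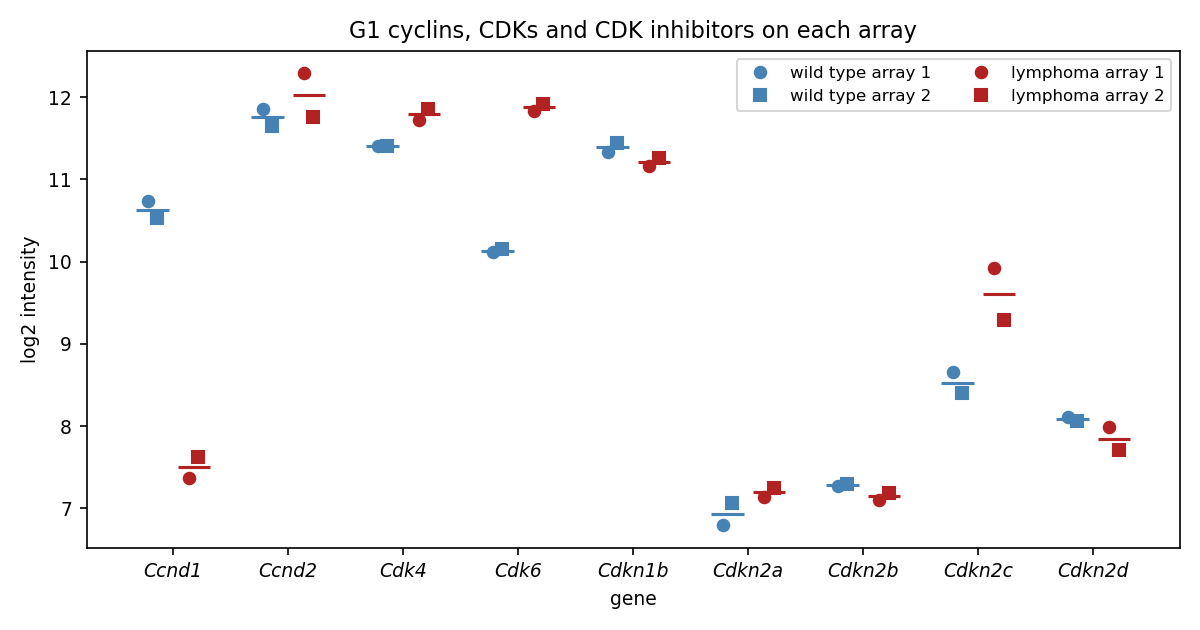
The log2 intensity of each measured gene is plotted for every array, with wild type arrays in blue, lymphoma arrays in red, circles for array 1, squares for array 2 and a line at each group's mean. Ccnd1 sat at 1704 and 1481 on the wild type arrays, against 166 and 198 on the lymphoma arrays, Cdk6 showed the opposite order, and only for Ccnd2 did the groups overlap. Heights of different genes cannot be compared, since each probe set has its own response.

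Tet2 itself had intensities of 980 and 1016 on the wild type arrays, against 596 and 399 on the lymphoma arrays. Its log2 difference was -1.03 (SE 0.24), with an adjusted p of 0.0771 in limma. The difference was -1.32 (adjusted p = 0.00156) without lymphoma array 1, where it passed, and -0.74 (adjusted p = 0.0822) without lymphoma array 2, where it did not. Median intensities of the arrays lay between 130 and 142. Pairs of arrays correlated at 0.95 to 0.98 over log2 values (across probe sets, not replicates). The T cell genes Cd3e and Cd4 were bright on every array, with Cd3e between 5806 and 7720 and Cd4 between 4552 and 7134. Cd5, another T cell marker, was lower in lymphoma, with 3929 and 3479 against 2443 and 1557 (difference -0.92, adjusted p = 0.113 in limma). Among the lists of other spleen cells, 6 had lower sums on the lymphoma arrays, as given beside Ccnd1. They were those of B cells, plasma cells, CD8 T cells, dendritic cells, macrophages, and stroma and endothelium. The summed intensities of natural killer, neutrophil and erythroid markers were 1.69-fold, 1.48-fold and 1.32-fold higher, with 1 called gene each in the first 2 lists, Nkg7 (0.81) and Ngp (1.49), and none in the third, whose groups overlapped. The median difference of the natural killer list was -0.50, opposite in sign to its sum. That of the neutrophil list was 0.10, and 5 of its 6 genes did not pass. Ngp had intensities of 134 and 125 on the wild type arrays, against 349 and 376 on the lymphoma arrays.

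Ccnd1, which encodes cyclin D1, showed the largest change of the 9 genes. Its intensity was 1704 and 1481 on the wild type arrays, against 166 and 198 on the lymphoma arrays, or 1592 ± 158 (SD, n = 2) against 182 ± 22.9 (SD, n = 2). Both lymphoma values lay far below both wild type values, and the arrays of a group were close to each other. The lymphoma values were not far above the median intensities of those arrays, 138 and 130. No detection calls were used, so whether Ccnd1 was above background there is unknown. The log2 difference was -3.13 (SE 0.20, 8.77-fold lower, adjusted p = 0.00208 in limma), which ranked 39 by size among the 490 genes that fell. The difference was -3.03 (adjusted p = 0.0907) without wild type array 1 and -3.23 (adjusted p = 0.0623) without wild type array 2. With lymphoma array 1 or 2 left out it was -3.00 or -3.26, respectively.

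The fall of Ccnd1 went together with lower markers of other spleen cells, among them B cells, dendritic cells, macrophages, plasma cells and CD8 T cells. Of 7 measured B cell markers 6 fell, and their summed intensity was 17774 and 11892 on the wild type arrays, against 2651 and 2424 on the lymphoma arrays, 5.84-fold lower. Of 7 dendritic cell markers 6 fell, with sums of 5008 and 4184 against 731 and 756, 6.18-fold lower. Of 9 macrophage and monocyte markers 7 fell, with sums of 11384 and 11369 against 3041 and 4446, 3.04-fold lower. Of 5 plasma cell markers 2 fell, with sums of 11306 and 6989 against 3114 and 3594, while Prdm1 had a difference of 0.53. Neither of the 2 CD8 T cell markers passed, with sums of 1241 and 692 against 385 and 424. None of these markers was listed at 0. The stromal and endothelial list had no call among 8 genes, with sums of 2329 and 2047 against 1538 and 1529. The part of these cells in the fall of Ccnd1 was not tested, and in bulk RNA fewer cells of a type and less RNA per cell cannot be told apart. The 6 measured T cell markers did not pass, with sums of 22475 and 22599 against 26033 and 26561. When each array was set relative to the mean of Cd3d, Cd3e and Cd3g, the difference of Ccnd1 was -3.61 (adjusted p = 2.67e-07 in limma). That scale lowers every difference by the same 0.48, which moved the median of all genes from -0.04 to -0.52. A sign that turns on it shows only that a difference was smaller than that of the Cd3 genes. The spread was estimated anew on this scale, where 2864 genes were called, against 852 in the main fit. Its adjusted p-values are therefore not comparable with those of the main fit.

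**Figure D2:**
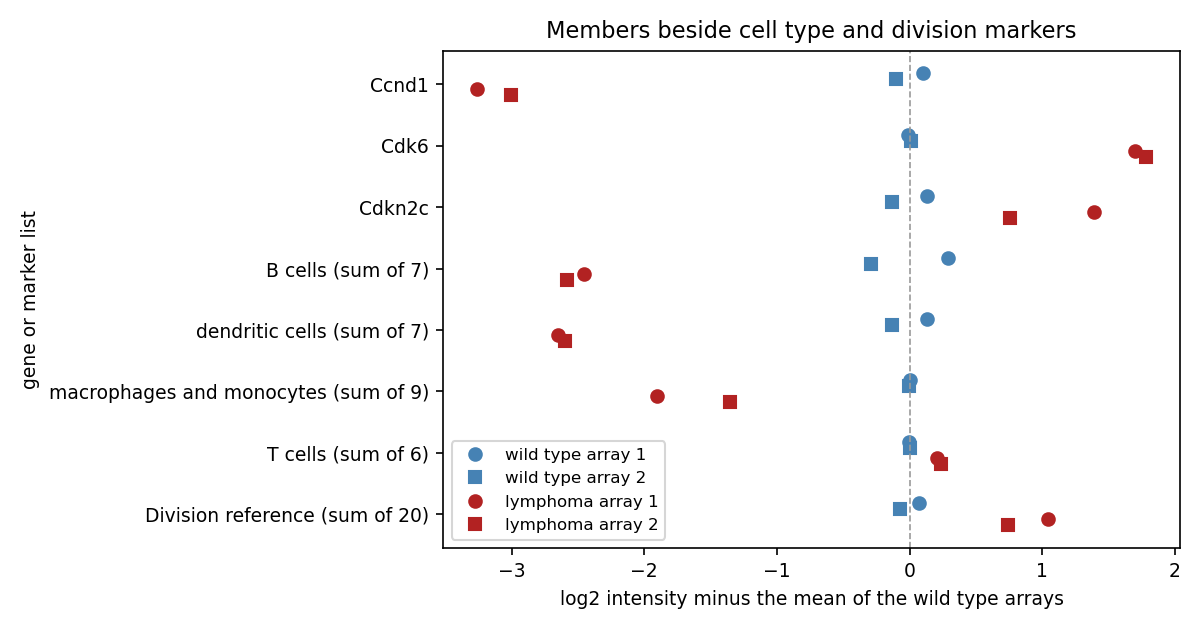
Points give the log2 intensity of each array minus the mean of the wild type arrays, for 3 genes and for the summed intensity of marker lists, with wild type in blue and lymphoma in red. On the lymphoma arrays Ccnd1 lay at -3.26 and -3.00, B cell markers at -2.46 and -2.58, dendritic cell markers at -2.65 and -2.60, T cell markers at 0.21 and 0.24, and Cdk6 at 1.70 and 1.78.

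The other D-type cyclins did not pass. Ccnd2, which encodes cyclin D2, had intensities of 3705 and 3224 on the wild type arrays, against 5007 and 3473 on the lymphoma arrays. The lower lymphoma array lay between the wild type arrays, so the groups overlapped. Its difference was 0.27 (SE 0.21, 95% interval -0.25 to 0.79, adjusted p = 0.68 in limma). Leaving out lymphoma array 2 gave 0.53 and leaving out lymphoma array 1 gave 0.0071, so 1 lymphoma array held most of the difference. On the Cd3 scale, with its common shift, it was -0.21. Ccnd3, the third D-type cyclin, was measured at 1469 and 1339 on the wild type arrays, against 1703 and 1102 on the lymphoma arrays. Its lymphoma values lay on either side of the wild type pair, with a difference of -0.03 (95% interval -0.62 to 0.56, adjusted p = 0.978 in limma). The interval allows a change of either sign for both cyclins, but none as large as the fall of Ccnd1.

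Cdk6, a catalytic partner of the D-type cyclins, rose. It had intensities of 1114 and 1135 on the wild type arrays, against 3657 and 3874 on the lymphoma arrays, or 1125 ± 14.5 (SD, n = 2) against 3765 ± 153 (SD, n = 2). The arrays of each group agreed closely and the groups were well apart. The log2 difference was 1.74 (SE 0.16, 3.35-fold higher, adjusted p = 0.00515 in limma), which ranked 95 by size among the 362 genes that rose. The call was lost without wild type array 1 (1.73, adjusted p = 0.11) and without wild type array 2 (1.76, adjusted p = 0.081), with little change in the size. Without one or the other lymphoma array the differences were 1.78 and 1.70. Relative to the Cd3 genes Cdk6 still rose, by 1.26 (SE 0.20, adjusted p = 0.000791 in limma), so its rise exceeded the change of the Cd3 genes on the same arrays. The difference was smaller and its SE larger than in the main fit, and the adjusted p-values of these fits are not comparable. Genes of cell division were higher on these arrays too, with a summed intensity of 15286 and 13869 on the wild type arrays, against 30074 and 24347 on the lymphoma arrays over 20 genes. Their part in the rise of Cdk6 was not tested.

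Cdk4, the other partner of the D-type cyclins, did not pass. Its intensities were 2708 and 2718 on the wild type arrays, against 3377 and 3716 on the lymphoma arrays, so both lymphoma values were higher. The difference was 0.38 (SE 0.15, 1.31-fold, 95% interval 0.02 to 0.75, adjusted p = 0.291 in limma), and it was -0.09 on the Cd3 scale, with its common shift of 0.48. The upper end of that interval lies below the lower end of the interval for Cdk6, 1.36. Within each array, log2 Cdk6 minus log2 Cdk4 was -1.28 and -1.26 on the wild type arrays, against 0.11 and 0.06 on the lymphoma arrays. The shift was 1.36 (SE 0.03), and both lymphoma arrays lay above both wild type arrays. A two-sided exact permutation test of this shift gave p = 0.333, the smallest p that 2 arrays against 2 can give, and 0.333 after adjustment over the 3 pairs compared. The same p was obtained for the shift of Ccnd2 minus Ccnd1, 3.40 (SE 0.39), and for Cdkn2c minus Cdkn2d, 1.31 (SE 0.21). The SEs of these 3 shifts come from the 2 values of each group alone and not from limma. They are therefore very imprecise and not comparable with the SEs of single genes.

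The sequences upstream of Cdk4 and Cdk6 are shown because these kinases share a function while Cdk6 passed the test and Cdk4 did not. Each is the 250 bases before the annotated start, taken from RefSeq on GRCm38.p6, both on the plus strand, with CACGTG, the E-box read alike on both strands, in capitals. The Cdk4 stretch is chr10:127063285-127063534 and the Cdk6 stretch is chr5:3343643-3343892.
Cdk4: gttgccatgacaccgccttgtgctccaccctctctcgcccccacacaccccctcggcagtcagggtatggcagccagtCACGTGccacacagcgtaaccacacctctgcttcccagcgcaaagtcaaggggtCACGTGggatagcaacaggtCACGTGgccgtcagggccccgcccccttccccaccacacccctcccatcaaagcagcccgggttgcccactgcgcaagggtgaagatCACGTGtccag
Cdk6: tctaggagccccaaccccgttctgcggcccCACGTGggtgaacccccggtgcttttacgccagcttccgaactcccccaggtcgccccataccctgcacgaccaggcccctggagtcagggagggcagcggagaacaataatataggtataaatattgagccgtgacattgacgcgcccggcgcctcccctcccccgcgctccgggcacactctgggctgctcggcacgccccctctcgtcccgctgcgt

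The Cdk4 stretch held 4 copies of CACGTG, starting 172, 118, 98 and 11 bases before the start, and the Cdk6 stretch held 1, at 220 bases before it. Windows of 300 bases, from 250 before to 50 after the start, were searched in all 32841 promoters of the table, of which 7.15% held this motif. Myc, whose protein binds this E-box with a partner, had intensities of 1371 and 984 on the wild type arrays, against 1032 and 1598 on the lymphoma arrays, with overlapping groups (difference 0.15, adjusted p = 0.896 in limma). It was looked up after the motif matches were seen. A match describes letters and shows no binding.

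Cdkn2c, which encodes the INK4 inhibitor p18, had the next largest difference after Ccnd1 and Cdk6 and did not pass. Its intensities were 403 and 337 on the wild type arrays, against 967 and 624 on the lymphoma arrays. Both lymphoma values were above both wild type values, but they differed 1.55-fold from each other. The log2 difference was 1.08 (SE 0.26, 2.11-fold, 95% interval 0.45 to 1.70, adjusted p = 0.0877 in limma). It was 0.76 (adjusted p = 0.0922) without lymphoma array 1 and 1.39 (adjusted p = 0.000971) without lymphoma array 2, a fit in which 1 lymphoma array stands for the group. Relative to the Cd3 genes it was 0.60 (adjusted p = 0.103).

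The other INK4 genes showed small differences that did not pass. Cdkn2d, encoding p19INK4d, had intensities of 276 and 268 on the wild type arrays, against 254 and 209 on the lymphoma arrays, with a difference of -0.24 (SE 0.19, 95% interval -0.69 to 0.21). Cdkn2a encodes the INK4 inhibitor p16 and, in another reading frame, the Arf protein, which stabilises p53. Its probe set carries accessions of both RefSeq transcripts, so they cannot be told apart. Its intensities were 111 and 134 on the wild type arrays, against 141 and 152 on the lymphoma arrays, and the difference was 0.26 (SE 0.18, 95% interval -0.18 to 0.71, adjusted p = 0.62 in limma), or -0.22 relative to the Cd3 genes. Cdkn2b, encoding p15, had intensities of 155 and 157 on the wild type arrays, against 137 and 146 on the lymphoma arrays, with a difference of -0.14 (SE 0.17, 95% interval -0.54 to 0.26). Both genes lay near the median intensity of all probe sets, which was between 130 and 142. No detection calls were used here, so whether these 2 genes were above background is unknown, and small changes of dim genes can be understated.

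Cdkn1b, which encodes the CDK inhibitor p27, a brake that is high in resting lymphocytes, did not pass. Its brighter probe set had intensities of 2578 and 2788 on the wild type arrays, against 2297 and 2448 on the lymphoma arrays, so both lymphoma values were slightly lower. The difference was -0.18 (SE 0.16, 95% interval -0.56 to 0.20, adjusted p = 0.725 in limma). The other probe set of the gene had intensities of 504 and 465 against 361 and 401, with a difference of -0.35 (SE 0.18). Both probe sets pointed lower. On the Cd3 scale the brighter probe set had a difference of -0.66 (adjusted p = 0.0456 in limma), most of which is the shift of 0.48 common to all genes, and 2589 genes were called lower there.

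**Figure D3:**
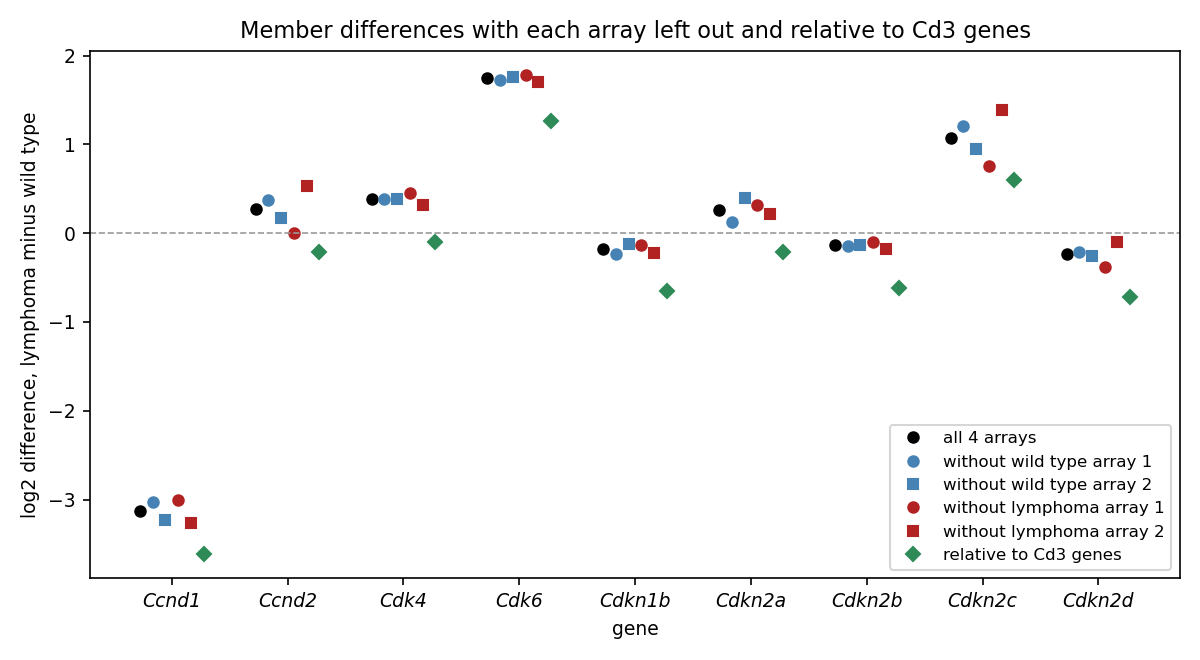
The log2 difference, lymphoma minus wild type, is plotted for each measured gene with all 4 arrays (black), with each array left out in turn (blue and red) and relative to the mean of Cd3d, Cd3e and Cd3g (green). Ccnd1 stayed between -3.61 and -3.00 and Cdk6 between 1.26 and 1.78, while the green points of Ccnd2, Cdk4 and Cdkn2a lie below 0 after the shift of 0.48 common to all genes.

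The promoter table held windows for 8 of the 10 genes, 11 windows in all, because Cdkn1a, Cdkn2a and Cdkn2c have 2 annotated starts each. CpG dinucleotides, the sites that carry methylation, were counted because TET enzymes act on them. The Cdk6 window held 27 CpGs, the Cdk4 window 22, the Cdkn1b window 30, the Cdkn2d window 22 and the Cdkn2b window 18, against a median of 7 over all windows. In the same order, 84.5%, 76.9%, 88.3%, 76.9% and 70.3% of all windows held fewer, so such counts are common among promoters. The 2 Cdkn2c starts differed, with 33 and 8 CpGs, the 2 Cdkn2a starts had 45 and 12, and the 2 Cdkn1a starts had 23 and 2, the last being the only window below the median. The share of all windows with fewer was 91.4% and 51.3% for Cdkn2c, 98.1% and 60.4% for Cdkn2a, and 78.5% and 14.1% for Cdkn1a. The E2F motifs TTTCCCGC and TTTGGCGC were searched on both strands, and 1.57% of all windows held at least 1 of them. A match was found in 1 of the 11 windows, at the Cdkn2a start with 45 CpGs. The FOXO motif TGTTTAC, present in 3.65% of all windows, was in none of the 11. CACGTG was in 3 of the 11, those of Cdk4, Cdk6 and the Cdkn2c start with 8 CpGs, and in 7.15% of all windows. The SP and KLF motif GGGCGG was in 8 of the 11 and in 35.7% of all windows. This motif consists of G and C alone, and base composition was not matched. GC content was 44.0% to 77.0% in the 11 windows, against a median of 52.7% over all windows. Only the Cdkn2c start with 8 CpGs lay below that median. Methylation was not measured, so these counts describe the sequences only.

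Around these genes, 30 other genes of the G1 to S step were measured. One of them rose, none fell and 29 did not pass, against 1.82% and 2.46% of all genes. The groups lay apart with lymphoma higher for 18 of the 30 and lower for 2, against 20.6% and 23.5% of all genes, and the median difference was 0.51 against -0.04 for all genes. The gene that rose was E2f6, a repressor of the E2F family, from 190 and 165 on the wild type arrays to 330 and 347 on the lymphoma arrays. Its difference was 0.94 (SE 0.18, adjusted p = 0.0436 in limma), and the call was lost without wild type array 1 (adjusted p = 0.214), without wild type array 2 (0.301), with all probe sets tested (0.106) and relative to the Cd3 genes (0.131). On the Cd3 scale, with its common shift, 1 of the 30 was called, Cdk3, towards lower. Ccne2, encoding a cyclin E that activates Cdk2, had 128 and 91.7 on the wild type arrays, against 225 and 232 on the lymphoma arrays, with a difference of 1.07 and an adjusted p of 0.0501, just outside the threshold. With array medians subtracted Ccne2 passed (adjusted p = 0.0455 in limma). It did not pass under quantile normalization (0.056), with all probe sets tested (0.125) or relative to the Cd3 genes (0.0911). Its difference was 1.09 and 1.05 without lymphoma array 1 and 2, and 1.32 and 0.83 without wild type array 1 and 2. Its relative Ccne1 had 406 and 343 against 695 and 586, with a difference of 0.77 (adjusted p = 0.105).

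Among these 30 genes Rb1, Cdk2, E2f1 and E2f2 did not pass. Rb1, the retinoblastoma gene, had intensities of 1634 and 1462 on the wild type arrays, against 1512 and 1501 on the lymphoma arrays, with overlapping groups and a difference of -0.04 (95% interval -0.44 to 0.37). Cdk2, the kinase of the next step, had 629 and 448 against 618 and 471, also with overlapping groups and a difference of 0.02 (95% interval -0.58 to 0.62). The activating factors E2f1 and E2f2 had differences of 0.58 and 0.56, and the groups lay apart, lymphoma higher (adjusted p = 0.228 and 0.288 in limma).

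**Figure D4:**
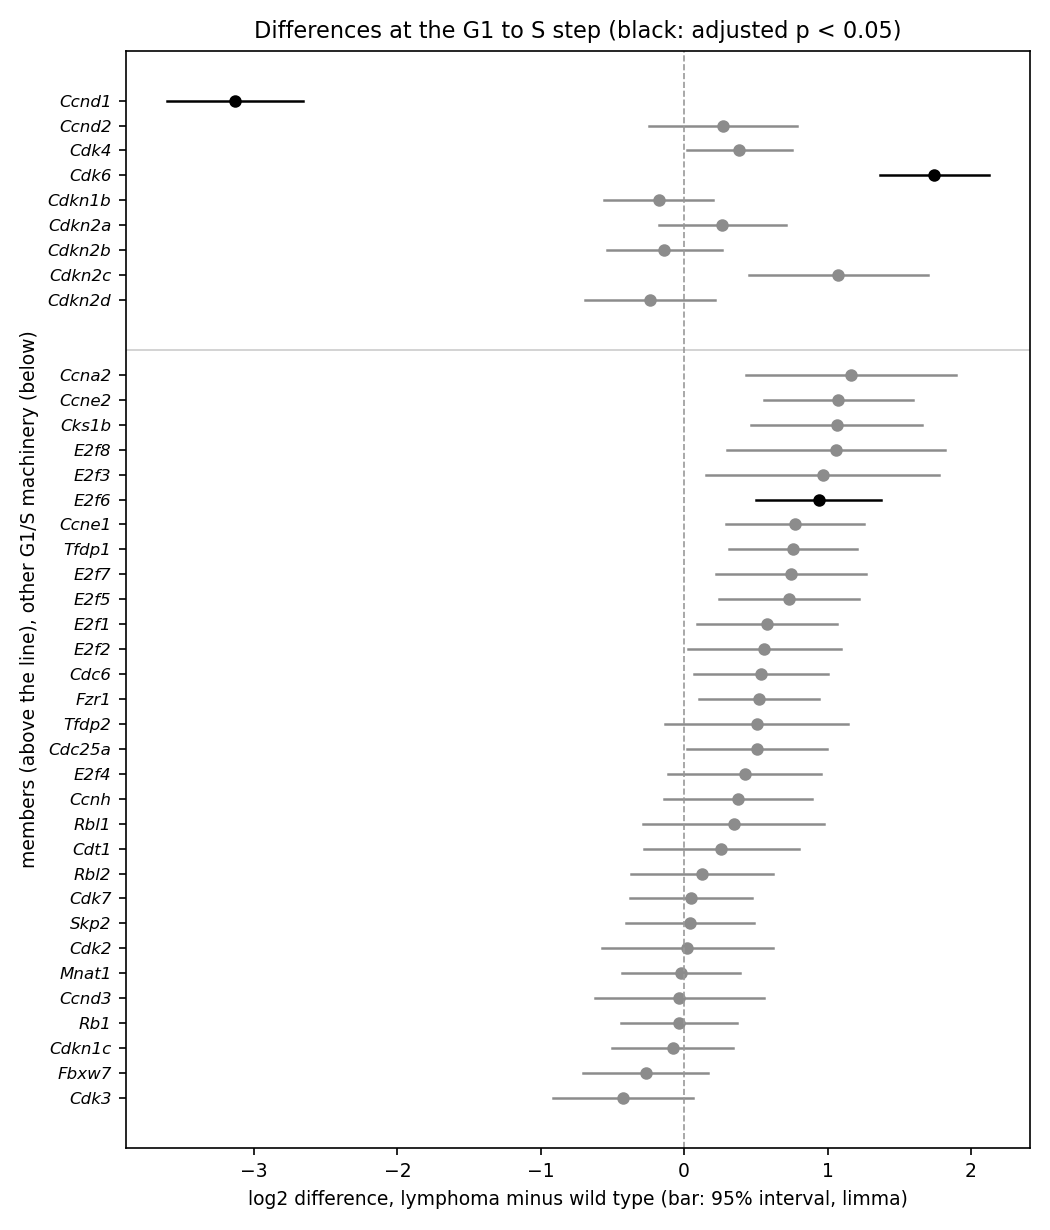
Points give the log2 difference, lymphoma minus wild type, with its 95% interval from limma, for the 9 measured genes (above the line) and for 30 other genes of the G1 to S step (below), with genes past an adjusted p of 0.05 in black. Ccnd1 at -3.13, Cdk6 at 1.74 and E2f6 at 0.94 passed, and 24 of the 30 genes below the line had positive differences.

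Downstream, 9 of 20 division genes rose, none fell and 11 did not pass, against 1.82% higher and 2.46% lower among all genes. All 20 lay higher on both lymphoma arrays than on both wild type arrays, against 20.6% of all genes. Cenpe, a motor of the kinetochore, rose by 1.54 on the log2 scale, as did Bub1 of the spindle checkpoint. Kif11, a spindle motor, and the mitotic kinase Cdk1 rose by 1.44 each, Tyms of thymidylate synthesis by 1.43 and the proliferation marker Mki67 by 1.12 (adjusted p = 0.0299 in limma). Lists of upstream regulators are read against the 4.27% of all genes called. Among 18 genes of the p53 axis, which induces Cdkn1a, 1 rose and 1 fell. Perp, a p53 target of cell junctions, rose from 60.3 and 73.8 to 211 and 395 (2.11, adjusted p = 0.0202), and Sesn1, a stress-induced sestrin, fell from 1477 and 1083 to 502 and 498 (-1.34, adjusted p = 0.024). Both calls were lost with all probe sets tested (adjusted p = 0.064 and 0.0635) and without either wild type array. Mdm2, the p53 ubiquitin ligase, had 902 and 802 against 1094 and 1049 (0.33, adjusted p = 0.468). Of 21 genes linked to FOXO factors and other upstream signals, 1 fell, the quiescence factor Klf2 (-1.48). None of 15 genes linked to Polycomb silencing, known to act on Cdkn2a in many cells, passed in limma. The list includes Kdm6b, a demethylase that opposes this silencing. By size, Ezh2 at 0.76 and Pcgf2 at 0.64 led this list. Ezh2 had 1409 and 1441 against 3153 and 1838, and Pcgf2 had 148 and 140 against 159 and 314, so for each 1 lymphoma array stood well above the other. The difference of Ezh2 was 1.15 without lymphoma array 2, and that of Pcgf2 was 1.13 without lymphoma array 1. In each of these fits 1 lymphoma array stands for the group. Over all alternatives Ezh2 ranged from 0.28 to 1.15 and Pcgf2 from 0.15 to 1.13.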

How the data were processed

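Total RNA of 4 samples was hybridised to 1 array each. The deposited intensity values, on a linear scale, were made with Affymetrix Expression Console per the submitters' processing notes. How they were summarised, background-corrected and normalized, and by which version, is not given here. Intensities ran from 2.50 to 18153 over 35556 probe sets, and the number of arrays limits the precision.

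Probe sets were named from GEO's platform annotation (21789 with 1 symbol, 1621 with several, 12146 not listed). An identifier linked 21698 of the first kind to RefSeq. The probe set with the highest mean was used for a gene, which left 19938 genes, used as log2 with no filter and nothing added. Groups were compared with limma 3.58.1 (R 4.3.3), with no term but group, a variance trend, two-sided tests and Benjamini-Hochberg adjustment (2 residual and 4.24 prior degrees of freedom). The procedure was tested on simulated data. Shifts between 3 gene pairs were tested with scipy 1.17.1, and figures were drawn with matplotlib 3.10.9.

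The members, lists and tests were chosen with earlier results of these data known. Named genes are the members, up to 5 called genes of each other list by size (2 as values where none was called) and fixed reference genes, of which 1 is not reported here. Myc was named after the motif matches were seen. The lists were compared by counts, summed intensities and median differences, with no test of a list. Alternatives were other scalings, filters, variance models, probe set rules, thresholds, a pseudocount of 16, array weights, the replicate block and leaving out each array.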

Additional observations from a re-analysis of the deposited data

How the results depend on the processing

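The 9 genes were recomputed under 142 combinations of gene and alternative, of which 132 kept direction and side of the threshold. Ccnd1 and Cdk6 kept their direction in all 16 alternatives each, with adjusted p up to 0.0907 and 0.11 in limma, and lost their call only when a wild type array was left out. With 1 array left out in turn, 0 to 3 of the 9 genes, 0 to 8 of the 30 other G1 to S genes and 0 to 1852 of all genes were called. The 0 counts came from leaving out either wild type array, where unadjusted p-values under 0.05 were still found for 2 rises and 1 fall among the 9 genes in each case, and for 1418 and 929 rises and 890 and 1120 falls among all genes. A lone array is assumed to vary like the other group.

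Relative to the Cd3 genes 2864 genes were called (275 higher, 2589 lower) in place of 852 (362 higher, 490 lower), and testing all 35556 probe sets gave 439. A threshold of 0.01 gave 247 calls and one of 0.10 gave 1357. Of the 30 other G1 to S genes, 2 were called with array medians subtracted, without the lowest tercile, with the robust trend and with averaged probe sets, 4 at a threshold of 0.10, and 0 at 0.01 or with all probe sets tested (15 and 13 higher, none lower, at an unadjusted p under 0.05 in limma). The Cd3 scale lowers all differences alike by 0.48, so that small positive ones turn by construction, as for Ccnd2 (-0.21), Cdk4 (-0.095), Cdkn2a (-0.22), Cdk2 (-0.46), Mdm2 (-0.15) and Mtap (-0.31). Direction turned with array medians subtracted for Ccnd3 (0.043) and Rb1 (0.040), and under quantile normalization for Cdk2 (-0.069). With 1 array left out, Ccnd3 ranged from -0.35 to 0.28, Cdk2 from -0.22 to 0.27 and Rb1 from -0.12 to 0.043. For the settings other than the Cd3 scale the causes were not tested.

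The labels give both groups replicate numbers 1 and 2, but do not say that a number marks a shared source. The deviations of same-numbered arrays from their group means correlated at 0.228 across genes, which with 2 numbers does not settle a pairing. With the replicate block 984 genes were called, and 3 of the 9 genes, Cdkn2c being added (adjusted p = 0.0468 in limma). Of the 30 other G1 to S genes 4 were called, Ccna2, Ccne2, Cks1b and E2f8, while E2f6 lost its call (adjusted p = 0.0531).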

Other observations

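The nearest 3 measured protein-coding genes on each side of each gene, by RefSeq gene order, were looked up after the values of the 9 genes had been seen. The 6 neighbours of Ccnd1, among them Tpcn2 and Fgf15, had log2 differences between -0.21 and 0.01, beside -3.13 for Ccnd1, and none passed in limma. Fgf4, Fgf15 and Mrgprf lay between 76.6 and 127 on the 4 arrays, below the median of every array, and Smim38 between 114 and 143. Genes this dim leave little room for a fall, so they say little beside Ccnd1. LTO1 lay between 159 and 205 and Tpcn2 between 400 and 489. For Cdk6, 3 neighbours on one side were measured, including Fam133b (0.21) and Rbm48 (0.04), and their differences lay between -0.41 and 0.21, beside 1.74 for Cdk6, with none past the threshold. The 6 neighbours of Cdkn2c lay between -0.25 and 0.30, also with no call.

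Beside Cdkn2a and Cdkn2b, Mtap, an enzyme of methionine salvage, had intensities of 404 and 342 on the wild type arrays, against 463 and 380 on the lymphoma arrays, with overlapping groups and a difference of 0.17 (95% interval -0.32 to 0.66). Of 5 listed neighbours of this locus none passed in limma, and the largest differences were those of Dmrta1 (-0.45) and Elavl2 (-0.34), whose intensities lay between 53.7 and 104. Beside Cdkn1b 1 of 6 neighbours was called, Dusp16, a phosphatase of MAP kinases, which rose by 1.23 (adjusted p = 0.0243 in limma). Gprc5a, also beside Cdkn1b, had a larger difference of 1.59 that did not pass (adjusted p = 0.109). Its intensities were 52.8 and 49.4 on the wild type arrays, against 96.9 and 245 on the lymphoma arrays. Beside Cdkn2d 1 of 6 neighbours was called, the transporter gene Slc44a2, which fell by 0.87 (adjusted p = 0.0395 in limma). No neighbour of the other measured genes was called, and the share called among all genes was 4.27%. A link between these calls and the loci was not tested.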
